A study of Mus musculus with 6 samples.

Results

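Peptides shown on MHC class I molecules are made in the cytosol and loaded in the endoplasmic reticulum (ER), and 10 genes of that route were followed here in macrophages from ischemic muscle. They were taken by symbol as the rows for the peptide transporter subunits Tap1 and Tap2, the trimming peptidase Erap1, the loading factors Tapbp, Calr and Pdia3, the immunoproteasome subunits Psmb8, Psmb9 and Psmb10, and the regulator Nlrc5. All 10 were found among the 55353 rows of the deposited count table, and all 10 passed the filter on low counts. The libraries came from macrophages sorted from calf muscle 3 days after hindlimb ischemia, an injury that interrupts the blood supply of the leg, in mice labelled WT (3 libraries) or pfkfb3-ko (3 libraries, here KO). The strains 129S1/Sv, 129X1/SvJ, C57BL/6 and CBA were mixed in the background of all mice, and the protocol common to both groups was 1 mg of tamoxifen on 5 consecutive days, followed by at least 7 days of rest. Pfkfb3 encodes an enzyme that promotes glycolysis; the design text places its deletion in endothelial cells (EC), the genotype label names no cell type, and the sources used here give neither the driver of the deletion nor the age of the mice.

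The proteasome cuts cytosolic proteins into peptides. In cells exposed to interferons, its constitutive catalytic subunits are replaced by Psmb8, Psmb9 and Psmb10, which gives the immunoproteasome. Tap1 and Tap2 form the transporter that carries peptides into the ER, where Erap1 trims them and tapasin (Tapbp), calreticulin (Calr) and the disulfide isomerase ERp57 (Pdia3) hold empty class I molecules until a peptide fits. Calr and Pdia3 also fold many other glycoproteins, while Nlrc5 is a transcriptional activator of class I genes. Macrophages present antigen, and interferon-gamma is a known inducer of most of the class I specific members of this route.

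Of the 10 genes, Psmb9, Tap1, Psmb8 and Tap2 lie next to each other within 34335 bases of chromosome 17 (GRCm38, GENCODE M21), in the mouse MHC. Psmb9 (ENSMUSG00000096727) occupies 34181987 to 34187764 on the minus strand and Tap1 (ENSMUSG00000037321) 34187553 to 34197225 on the plus strand, so their first exons face away from each other and share 212 exonic bases. Psmb8 (ENSMUSG00000024338) follows at 34197721 to 34201454 and Tap2 (ENSMUSG00000024339) at 34203527 to 34216321, both on the plus strand. Tapbp (ENSMUSG00000024308) lies on the same chromosome at 33915899 to 33929292. Chromosome 8 carries Calr (ENSMUSG00000003814, 84841850 to 84846934), Nlrc5 (ENSMUSG00000074151, 94434356 to 94527272) and Psmb10 (ENSMUSG00000031897, 105935735 to 105938444). Erap1 (ENSMUSG00000021583) is on chromosome 13 at 74639568 to 74693201 and Pdia3 (ENSMUSG00000027248) on chromosome 2 at 121413775 to 121438687.

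Promoter windows of 250 bases before to 50 bases after the gene start were available from RefSeq (GRCm38.p6) for 8 of the 10 genes; Tap2 and Nlrc5 had no entry. The RefSeq starts lie downstream of the outermost GENCODE starts given above, by 3 bases for Tap1 and Calr, 127 for Pdia3, 474 for Psmb8 and 3579 for Tapbp among the windows shown, so the windows of Psmb8 and Tapbp do not reach the outermost start. Of these windows, 5 are shown as examples from both sides of zero on the scale of log2 fold changes of KO over WT. Tap1, Tapbp and Psmb8 were above it, and Calr and Pdia3 below. The windows of Psmb9 and Psmb10, which were also above zero, and of Erap1, which was below it, are not shown. The windows of Tap1 and Psmb9 overlap by 275 bases, so the Tap1 window also holds most of that of Psmb9. Capitals mark every match, on either strand, to the interferon-stimulated response element core (GAAA, any 2 bases, GAAA), the gamma-activated site TTCNNNGAA, the CCAAT box CCAAT and the ER stress element (CCAAT, any 9 bases, CCACG), which contains a CCAAT box.
Tap1 (chr17:34187306-34187605, plus strand): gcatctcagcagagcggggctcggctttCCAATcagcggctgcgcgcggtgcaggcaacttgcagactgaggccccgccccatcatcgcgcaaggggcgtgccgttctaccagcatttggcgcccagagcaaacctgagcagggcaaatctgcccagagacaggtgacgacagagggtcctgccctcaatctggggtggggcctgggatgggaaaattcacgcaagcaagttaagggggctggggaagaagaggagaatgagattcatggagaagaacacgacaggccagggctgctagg
Tapbp (chr17:33919228-33919527, plus strand): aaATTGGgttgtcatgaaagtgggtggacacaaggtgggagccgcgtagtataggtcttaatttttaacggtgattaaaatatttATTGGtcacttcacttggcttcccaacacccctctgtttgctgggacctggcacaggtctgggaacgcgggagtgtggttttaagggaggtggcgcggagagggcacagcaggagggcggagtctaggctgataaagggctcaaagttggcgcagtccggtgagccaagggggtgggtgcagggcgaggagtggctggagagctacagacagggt
Psmb8 (chr17:34197945-34198244, plus strand): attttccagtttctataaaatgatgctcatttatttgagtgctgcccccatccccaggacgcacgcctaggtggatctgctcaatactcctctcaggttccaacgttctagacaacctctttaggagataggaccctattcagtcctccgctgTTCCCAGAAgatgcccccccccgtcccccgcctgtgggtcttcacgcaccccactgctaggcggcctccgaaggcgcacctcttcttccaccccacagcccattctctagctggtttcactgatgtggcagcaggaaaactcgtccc
Calr (chr8:84846882-84847181, minus strand): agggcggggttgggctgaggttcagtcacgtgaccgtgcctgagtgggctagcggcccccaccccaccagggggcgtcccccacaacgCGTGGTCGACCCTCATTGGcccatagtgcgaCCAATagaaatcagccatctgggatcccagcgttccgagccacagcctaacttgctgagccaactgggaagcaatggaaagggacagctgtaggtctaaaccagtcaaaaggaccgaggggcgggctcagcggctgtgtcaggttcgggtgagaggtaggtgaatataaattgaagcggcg
Pdia3 (chr2:121413652-121413951, plus strand): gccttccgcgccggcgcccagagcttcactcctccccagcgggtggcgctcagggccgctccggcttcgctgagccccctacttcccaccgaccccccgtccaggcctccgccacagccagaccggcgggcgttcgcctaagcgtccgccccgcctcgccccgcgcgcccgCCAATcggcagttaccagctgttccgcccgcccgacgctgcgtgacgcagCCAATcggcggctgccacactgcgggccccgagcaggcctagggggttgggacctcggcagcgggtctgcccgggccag
The gamma-activated site was found in the window of Psmb8, beginning 97 bases before the start, and in 8.47% of the 27025 promoter windows of the table. The ER stress element was found in the window of Calr, beginning 162 bases before the start on the opposite strand, and in 0.13% of all windows. CCAAT boxes stood in the windows of Tap1, Psmb9, Tapbp, Calr and Pdia3, and in 37.9% of all windows. The boxes of Tap1 and Psmb9 are the same bases of their shared stretch, read from opposite strands. Among the 8 windows the interferon-stimulated response element core was found in that of Erap1, against 3.49% of all windows. These matches describe the letters of the windows and are not measured binding sites.

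In KO macrophages 3 of the 10 genes rose, Tapbp, Tap2 and Psmb9, and none fell (edgeR quasi-likelihood test, Benjamini-Hochberg adjusted p under 0.05 over 14987 tested genes), while 4.39% of all tested genes were called higher, 2.25% lower and 6.64% in either direction. The median log2 fold change of KO over WT was 0.52 over the 10 genes and 0.01 over all tested genes. At an unadjusted p under 0.05 the edgeR counts among the 10 were 6 higher and 1 lower, against 13.1% and 10.3% of all tested genes. The log2 fold changes of 7 genes were above zero and those of Erap1, Calr and Pdia3 were below it. The 3 genes called by edgeR all lie on chromosome 17, as do Tap1 and Psmb8, and no member on another chromosome was called. The groups did not overlap in 4 genes that were higher in KO, which are Tap1, Tap2, Tapbp and Psmb9, and in 1 that was lower, Pdia3; over all tested genes these shares were 16.8% and 14.7%. With library sizes alone, a scaling under which all tested genes had a median of -0.60 (300 genes higher and 6008 lower), Tapbp, Tap1 and Psmb9 were above zero, Tap2, Psmb8, Psmb10 and Nlrc5 were between -0.19 and -0.03 and so above that median, and Erap1, Calr and Pdia3 were below it and called lower.

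**Figure D1:**
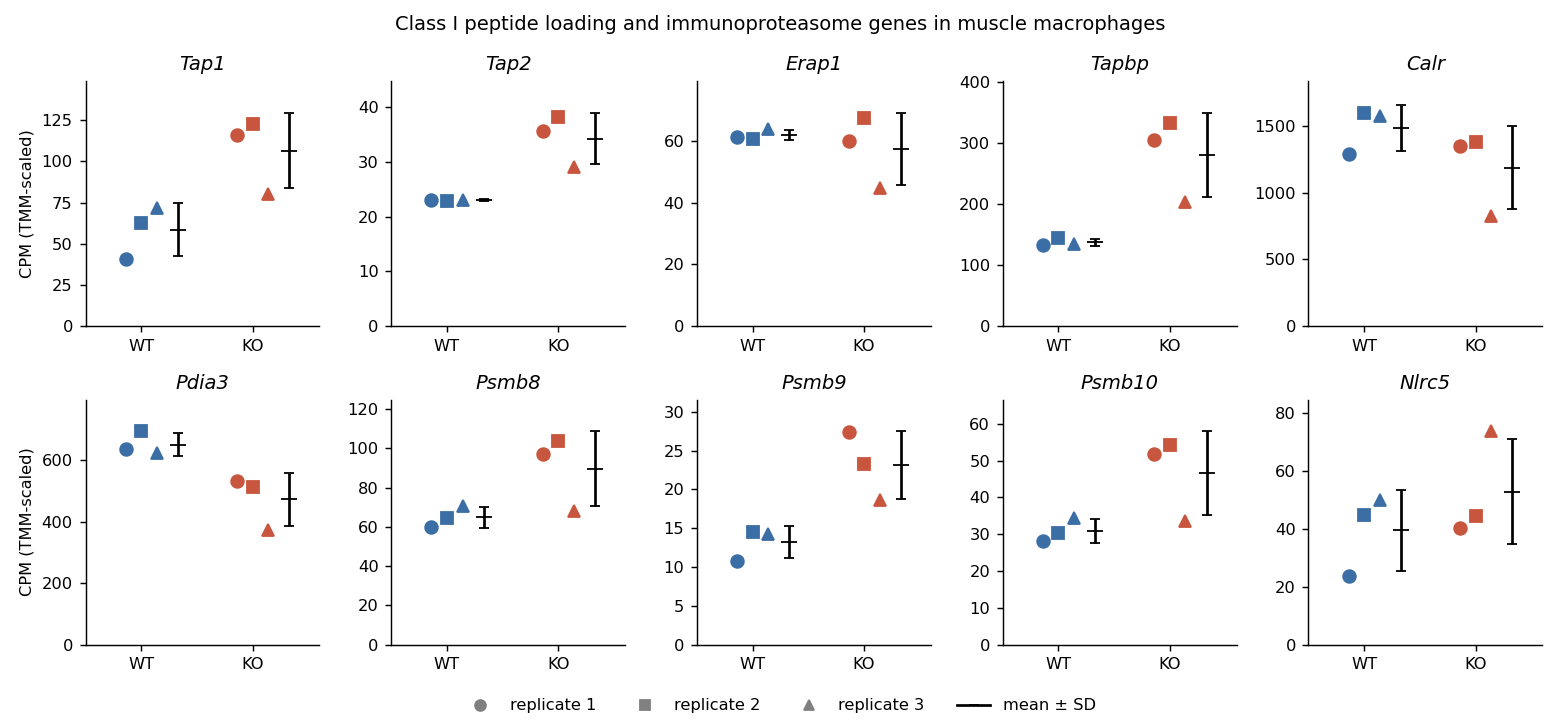
Level of each gene in CPM (counts scaled by TMM to a library total of 1000000; vertical axes start at 0) in the 3 WT and 3 KO libraries, with the mean and SD of each group beside the points. KO replicate 3 is the lowest KO library in 9 of the 10 genes, all but Nlrc5, and the groups do not overlap in Tap1, Tap2, Tapbp, Psmb9 and Pdia3.

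The libraries differed in more than genotype. Total counts ranged from 18853712 to 29060584 per library, and the 6 genes with the most counts, led by Gm23935 in every library, took 19.8% to 22.6% of the counts in WT and 40.5% to 52.6% in KO. Counts in protein-coding genes came to 16995733 to 22751784 in WT and 9176529 to 12422641 in KO. Xist, expressed in female cells, had 154 and 171 CPM in KO replicates 1 and 2 and did not exceed 0.47 CPM in the other 4 libraries, and the Y-linked gene Ddx3y was at 60.5 to 69.2 CPM in those 4 libraries and did not exceed 0.53 CPM in KO replicates 1 and 2, so sex differs within the KO group. KO replicates 1 and 2 were also the most alike pair of libraries, and in a chi-square test of counts over 10384 protein-coding genes the statistic per degree of freedom was 4.03 for them and 32.1 to 128 for the other pairs. A value above 1 shows more than counting error, which separate preparations of 1 sample would show too, so the labels alone make them separate samples. With their counts added up as 1 sample, edgeR called none of the 10 genes (Tapbp at an adjusted p of 0.079), where 1.35% of all tested genes were called higher. Whether each library of a group is from its own animal is not in the labels, so the p-values reflect the spread among these libraries, and part of it may be technical. Pfkfb3 itself was at 70.9, 101 and 82.4 CPM in WT and 55.5, 59.3 and 160 CPM in KO (adjusted p = 0.89), and since the deletion is placed in endothelial cells, its level in macrophages does not check the genotype.

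Macrophage markers were abundant in every library, with a summed level of 8 markers, Adgre1, Csf1r, Cd68 and Lyz2 among them, of 6127 to 8494 CPM in WT and 9398 to 10155 CPM in KO. Of these, Csf1r and C1qa rose, Cd68 fell and 5 were not called. Markers of other cell types were at lower levels and differed between the groups. The summed level of 7 fibroblast markers was 10.2 to 39.0 CPM in WT and 134 to 184 CPM in KO, with 4 of 6 tested markers called higher, and that of 9 muscle markers was 7.29 to 10.9 CPM and 38.6 to 57.1 CPM, with 3 of 7 called higher. The 9 endothelial markers summed to 43.3 to 80.5 CPM in WT and 15.5 to 30.1 CPM in KO, with 3 of 9 called lower, and 9 neutrophil markers, of which Ly6g was at 0 throughout, to 8.19 to 22.96 and 2.35 to 5.48 CPM, with 1 of 3 called lower. The 12 markers of T and NK cells summed to 0.36 to 1.997 CPM over all 6 libraries, with Cd8b1 at 0 throughout and none tested, and 8 dendritic cell markers summed to 10.1 to 30.1 CPM in WT and 16.7 to 20.8 CPM in KO, with 0 of 7 called by edgeR, DESeq2 or limma-voom other than 1 higher with limma-voom and 1 at an unadjusted edgeR p under 0.05. The 4 B cell markers summed to 1.92 to 2.40 CPM in WT and 2.92 to 5.22 CPM in KO, mostly from Cd79b, which was not called (adjusted p = 0.078, edgeR). The part of these cell types in the levels below was not tested, and in bulk samples a change in the number of cells of a type cannot be told apart from a change in RNA per cell.

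Levels spanned a wide range between genes. Per kilobase of exonic length, the order of WT levels was Calr (516 ± 60.4 CPM per kb), Pdia3 (207 ± 11.95), Tapbp (37.8 ± 1.597), Psmb8 (19.2 ± 1.61), Psmb10 (18.1 ± 1.90), Tap1 (10.7 ± 2.95), Erap1 (8.52 ± 0.23), Tap2 (6.08 ± 0.039), Nlrc5 (4.65 ± 1.65) and Psmb9 (3.61 ± 0.57; SD, n = 3 each). The libraries of neighbouring genes in that order overlapped between Psmb8 and Psmb10, between Tap1 and Erap1 and between Nlrc5 and Psmb9, and did not overlap for the other neighbours. In KO, Calr, Pdia3 and Tapbp kept the first 3 places at 412 ± 108, 151 ± 27.4 and 77.2 ± 18.9 CPM per kb, and Tap2 at 9.05 ± 1.24 CPM per kb stood above Erap1 at 7.90 ± 1.604, though these overlapped. Lengths are unions of all annotated exons, so the scale is approximate for genes with long rare isoforms.

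Both transporter subunits had log2 fold changes above zero, and Tap2 passed the test. Tap1 had levels of 40.6, 62.8 and 72.0 CPM in the WT libraries, in the order of replicates 1, 2 and 3 used throughout, and of 116, 123 and 80.5 CPM in the KO libraries. All KO libraries lay above all WT libraries, but WT replicate 3 and KO replicate 3 were close. The log2 fold change of Tap1 was 0.87 (SE 0.23; 95% confidence interval 0.34 to 1.40), with an adjusted p of 0.061 (edgeR). Tap2 was at 23.1, 22.8 and 23.1 CPM in WT and at 35.6, 38.1 and 29.0 CPM in KO. The WT values of Tap2 were nearly identical and every KO library lay above them. Tap2 rose with a log2 fold change of 0.57 (SE 0.14, adjusted p = 0.048, edgeR), a value just under the threshold; the call was kept in 1 of the 6 leave-outs, that of KO replicate 3, and lost in the others (adjusted p of up to 0.23, at log2 fold changes of 0.47 to 0.68 over all 6). It was also lost with KO replicates 1 and 2 added up (0.20), with DESeq2 size factors in place of TMM (0.055) and with no count filter (0.069). In the ratio of Tap1 to Tap2 counts within a library, the log2 value was 0.81, 1.46 and 1.64 in WT and 1.71, 1.69 and 1.47 in KO, so the groups overlapped (difference 0.32, or 0.07 without WT replicate 1; exact two-sided permutation p = 0.2).

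Tapbp, which encodes tapasin, the factor that tethers class I molecules to the transporter, had the highest log2 fold change of the 10 genes. It was at 133, 144 and 135 CPM in WT and at 305, 333 and 202 CPM in KO, with every KO library above every WT library. Tapbp rose from a mean of 137 ± 5.79 CPM to one of 280.0 ± 68.6 CPM (SD, n = 3; log2 fold change 1.03, SE 0.19, adjusted p = 0.017, edgeR). The call was kept without WT replicate 1 (adjusted p = 0.0499) and without KO replicate 3 (0.0016) and lost when any other library was left out (adjusted p of up to 0.092), at log2 fold changes of 0.87 to 1.22. The annotated exons of Tapbp overlap those of Zbtb22 by 149 bases and those of the antisense gene Gm19412 by 904 bases, and Gm19412 had at most 1 count in a library. Neither the annotation nor the strand setting of the counting is given in the sources used here, so reads from such overlaps, and from the 212 bases shared by Tap1 and Psmb9, may have been dropped or assigned to either gene.

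The general ER chaperones that work beside tapasin were not called. Calr, a lectin chaperone of glycoproteins, was at 1287, 1598 and 1577 CPM in WT and at 1349, 1383 and 828 CPM in KO. The groups overlapped, and the log2 fold change was -0.33 (95% confidence interval -0.82 to 0.17, adjusted p = 0.41, edgeR). Pdia3, the disulfide isomerase that pairs with tapasin, was at 637, 694 and 623 CPM in WT and at 532, 513 and 375 CPM in KO. Every KO library lay below every WT library, with a log2 fold change of -0.46 (95% confidence interval -0.84 to -0.09), but the adjusted p was 0.13 (edgeR), and the gene was called lower with limma-voom and sample weights (0.0054).

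The level of tapasin relative to these partners was compared within each library, where no scaling of library sizes enters; these ratios were chosen with the data in view. The log2 ratio of Tapbp to Calr counts was -3.28, -3.48 and -3.55 in WT and -2.15, -2.06 and -2.03 in KO. The 3 KO values lay close together, including KO replicate 3, in which both genes had their lowest KO level. The difference was 1.35 (SD 0.14 in WT and 0.060 in KO; two-sided exact permutation p = 0.1, which no 3 against 3 design can go below), and it was 1.30 to 1.43 with any library left out. For Tapbp to Pdia3 the log2 ratio was -2.26, -2.27 and -2.21 in WT and -0.80, -0.62 and -0.89 in KO, a difference of 1.47 (exact two-sided permutation p = 0.1).

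Erap1, the aminopeptidase that trims peptides to the length class I molecules hold, was at 61.3, 60.7 and 63.9 CPM in WT and at 60.2, 67.6 and 44.7 CPM in KO. The groups overlapped, and the log2 fold change was -0.11 (95% confidence interval -0.47 to 0.25, adjusted p = 0.74, edgeR). That interval excludes a rise as large as that estimated for Tap2, Tapbp or Psmb9. The last exons of Erap1 share 834 bases with Cast on the opposite strand, whose counts were higher than those of Erap1 in every library.

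**Figure D2:**
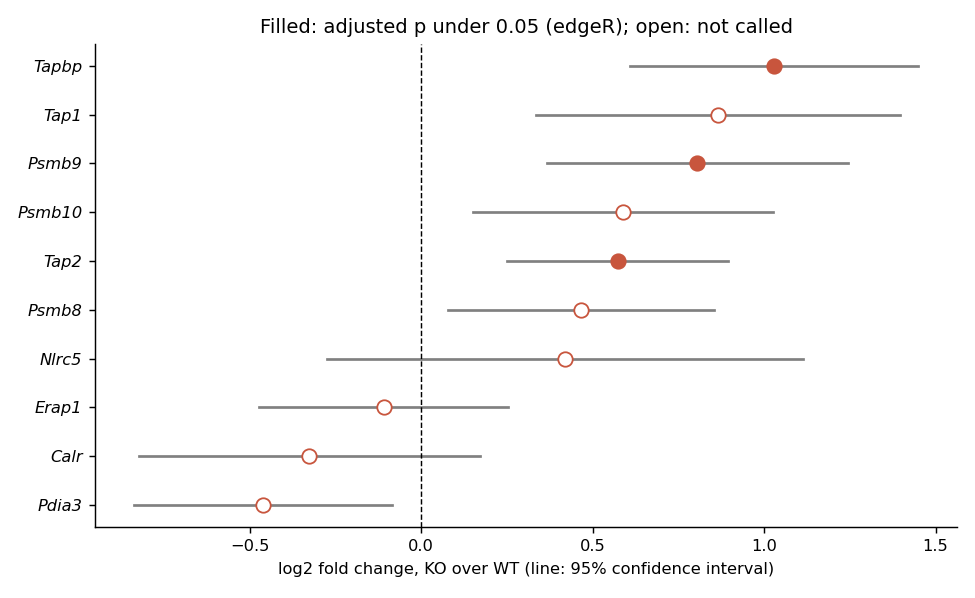
Log2 fold change of KO over WT for each of the 10 genes with its 95% confidence interval from the edgeR fit; filled points have an adjusted p under 0.05. Tapbp, Psmb9 and Tap2 are filled, and Pdia3, at -0.46, is the lowest of the 10.

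All 3 immunoproteasome subunits had log2 fold changes above zero, and Psmb9 passed the test. Psmb9, also known as LMP2, was at 10.8, 14.5 and 14.3 CPM in WT and at 27.4, 23.3 and 18.6 CPM in KO. Every KO library lay above every WT library. Psmb9 rose with a log2 fold change of 0.80 (SE 0.19, adjusted p = 0.043, edgeR). The call was lost without any 1 library other than KO replicate 3 (adjusted p of up to 0.16), at log2 fold changes of 0.64 to 0.94.

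Psmb8, also known as LMP7, was at 59.7, 64.3 and 70.6 CPM in WT and at 97.0, 104 and 68.0 CPM in KO. Psmb10, also known as MECL-1, was at 28.0, 30.3 and 34.4 CPM in WT and at 51.8, 54.4 and 33.5 CPM in KO. In both genes KO replicates 1 and 2 lay above all WT libraries and KO replicate 3 lay just below WT replicate 3. Their log2 fold changes were 0.47 (95% confidence interval 0.08 to 0.85, adjusted p = 0.14) and 0.59 (0.15 to 1.03, adjusted p = 0.11, edgeR).

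Each immunoproteasome subunit takes the place of a constitutive subunit, Psmb8 that of Psmb5, Psmb9 that of Psmb6 and Psmb10 that of Psmb7, so the ratio of each pair was taken within each library. Gene length is constant within a pair and does not enter the difference between groups. In all 3 pairs every KO library had a higher ratio than every WT library, KO replicate 3 included. In KO replicate 3, however, Psmb8 and Psmb10 were within the WT range, at 68.0 and 33.5 CPM. Psmb5 and Psmb7 were below every WT library there, at 15.8 CPM (WT 23.3 to 29.1) and 14.6 CPM (WT 23.5 to 29.1). In these pairs the high ratio of that library thus came from low constitutive subunits. Psmb9, at 18.6 CPM, was above every WT library there. The log2 ratio of Psmb8 to Psmb5 was 1.36, 1.42 and 1.28 in WT and 1.95, 1.97 and 2.11 in KO, a difference of 0.65. The log2 ratio of Psmb9 to Psmb6 was -3.31, -2.90 and -2.81 in WT and -1.78, -2.07 and -2.18 in KO, a difference of 1.00. The log2 ratio of Psmb10 to Psmb7 was 0.26, 0.13 and 0.24 in WT and 0.95, 1.36 and 1.19 in KO, a difference of 0.96.

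Each difference gave a two-sided p of 0.1 in the exact permutation test, the lowest possible for 3 against 3 libraries, so 0.1 is also the value after adjustment over the 3 pairs. With each library left out in turn the differences were 0.60 to 0.69 for Psmb8 to Psmb5, 0.84 to 1.10 for Psmb9 to Psmb6 and 0.86 to 1.07 for Psmb10 to Psmb7. The constitutive subunits themselves were not called by edgeR, DESeq2 or limma-voom, and none had an unadjusted edgeR p under 0.05. Their log2 fold changes were -0.18 for Psmb5, -0.19 for Psmb6 and -0.36 for Psmb7 (adjusted p = 0.66, 0.36 and 0.36, edgeR). Psmb7 shares 405 exonic bases with Nek6 on the opposite strand, and Psmb9 shares 212 with Tap1, so the counts in both of those pairs are less certain. Psmb8 and Psmb5 overlap Gm20496 and Mir686, which had 0 counts in every library.

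**Figure D3:**
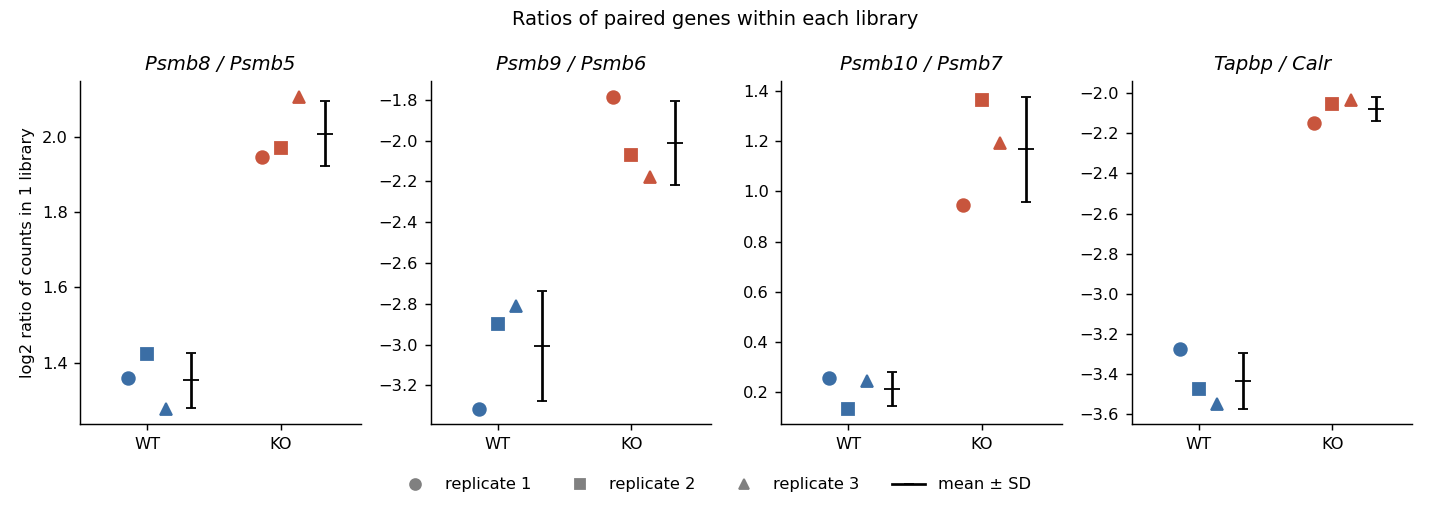
Log2 ratio of the counts of 2 genes in the same library for the 3 pairs of immunoproteasome and constitutive subunits and for Tapbp to Calr, with the mean and SD of each group (axes do not start at 0). In each panel all 3 KO libraries lie above all 3 WT libraries, with differences of 0.65, 1.00, 0.96 and 1.35.

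Nlrc5, the activator of class I genes, was not called. It was at 23.5, 44.9 and 49.9 CPM in WT and at 40.4, 44.6 and 73.6 CPM in KO. WT replicate 1 was low, KO replicate 3 was high, and the other 4 libraries lay between 40.4 and 49.9 CPM. The log2 fold change was 0.42 (95% confidence interval -0.27 to 1.11, adjusted p = 0.45, edgeR), or 0.11 without KO replicate 3 and 0.16 without WT replicate 1. In KO replicate 3, Nlrc5 had its highest level while each of the other 9 genes had its lowest KO level.

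The count of calls depended on single libraries. Leaving out WT replicate 1 kept Tapbp as the single call, and leaving out any library other than that one or KO replicate 3 left none of the 10 genes called by edgeR. The shares of all genes called higher in those leave-outs were 2.96%, 1.33% and 2.18% without WT replicates 1, 2 and 3 in turn, and 1.61% and 1.06% without KO replicates 1 and 2 in turn. Without KO replicate 3, 6 of the 10 genes rose, Tap1, Tap2, Tapbp, Psmb8, Psmb9 and Psmb10 (edgeR adjusted p of 0.0016 to 0.028), against 6.37% of all tested genes called higher. The KO libraries in that fit are replicates 1 and 2, the most alike pair, and the labels alone make them separate samples. Their Xist and Ddx3y levels were unlike those of every WT library, so sex and genotype cannot be told apart in that fit. KO replicate 3 was the lowest KO library in 9 of the 10 genes and in 42.0% of all tested genes, and it is the KO library whose Xist and Ddx3y levels were like those of WT. The part of sex in these differences was not tested. With KO replicates 1 and 2 left out, KO replicate 3 alone gave log2 fold changes of 0.51 for Tapbp, 0.45 for Psmb9, 0.41 for Tap1 and 0.29 for Tap2, of 0.02 and 0.07 for Psmb8 and Psmb10, and no call among the 10 by edgeR, where 0.400% of all genes were called higher and 0.180% lower. Among the tests on all libraries, DESeq2 called Tap1, Tap2, Tapbp and Psmb9 higher, where 7.29% of all genes were called higher. With limma-voom and sample weights the same 6 genes as without KO replicate 3 were called higher and Pdia3 lower, where 17.4% of all genes were called higher and 15.0% lower. Both fits use KO replicates 1 and 2, so the match of their genes is not independent.

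**Figure D4:**
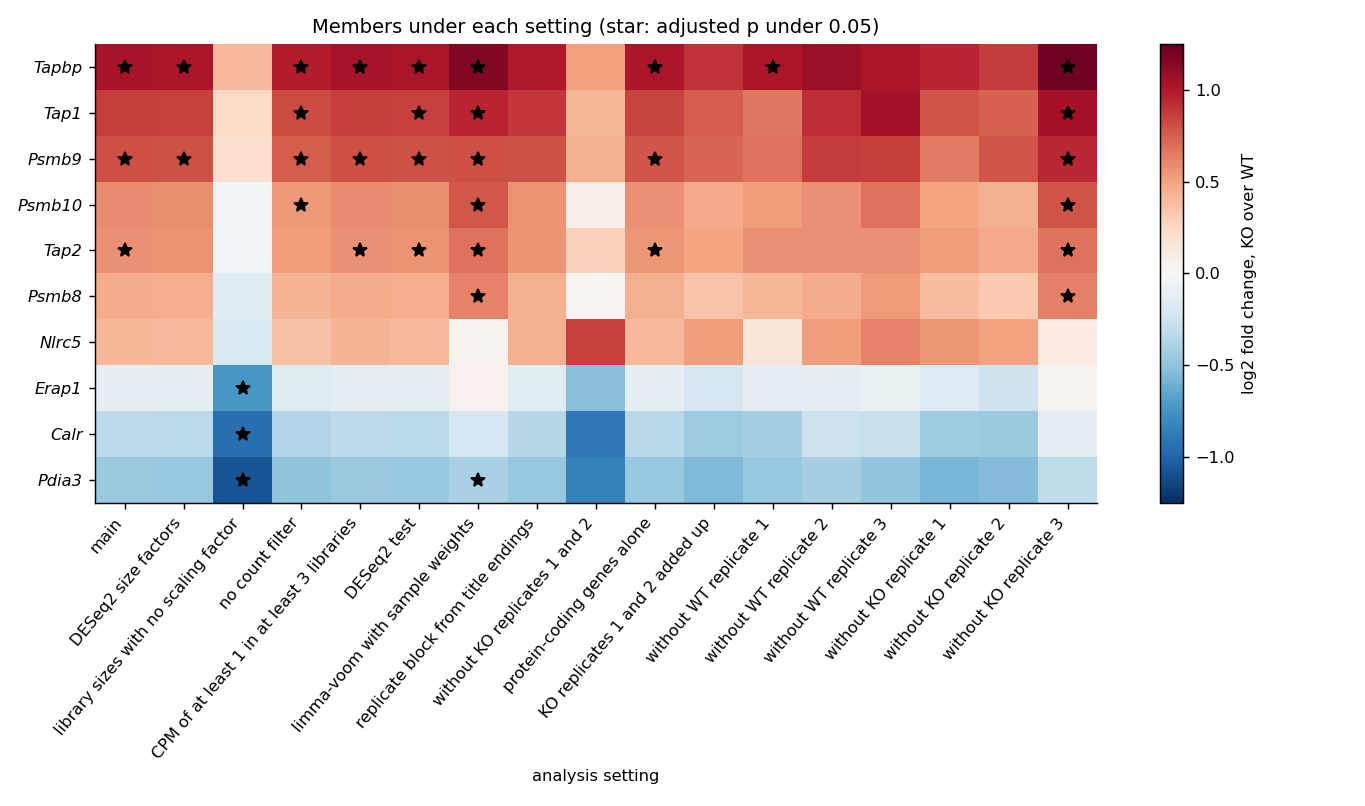
Log2 fold change of KO over WT for each gene (rows) under the settings used throughout (marked main) and 16 alternatives (columns), in colour, with a star where the adjusted p was under 0.05. Tapbp, Tap1 and Psmb9 are above zero in every column, while stars in Psmb8 are limited to limma-voom and to the setting without KO replicate 3.

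Most class I molecules, which receive these peptides, rose. Of 16 listed genes 13 were tested, 10 rose and none fell, with a median log2 fold change of 1.23. Over all tested genes 4.39% were called higher and 2.25% lower. H2-K1 went from 456 ± 1.78 to 1271 ± 228 CPM (adjusted p = 0.0029) and H2-D1 from 890.0 ± 39.0 CPM in WT to 1965 ± 351 CPM in KO (SD, n = 3 in both groups, adjusted p = 0.010, edgeR). H2-K1 kept its call with each library left out, and H2-D1 lost it in 3 of the 6 leave-outs, at an adjusted p no higher than 0.074: WT replicate 2, KO replicate 1 and KO replicate 2. Their shared light chain B2m had a mean of 531 ± 88.1 CPM in WT and of 627 ± 87.8 CPM in KO (adjusted p = 0.45, edgeR). Of the class I molecules 10 were called higher without KO replicate 3, against 6.37% of all tested genes. With it as the single KO library their median log2 fold change was 1.10. Near-identical copies such as H2-Q6 and H2-Q7, at log2 fold changes of 2.74 and 3.06, share reads, and their separate values are uncertain. The labels give the same mix of strains for all mice and do not give the class I alleles of each mouse. The part of strain in the counts of class I genes, and of the members on chromosome 17, was not tested.

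Among 12 other loading and ER folding factors 1 rose and 2 fell by edgeR, with a median log2 fold change of -0.36. Over all tested genes 4.39% were called higher and 2.25% lower. The gene that rose was Tapbpl, which encodes the tapasin relative TAPBPR, a peptide editor of class I molecules. It was at 8.03, 8.88 and 9.01 CPM in WT and at 14.8, 14.5 and 14.6 CPM in KO, with no overlap and nearly equal KO values (log2 fold change 0.76, SE 0.15, adjusted p = 0.024, edgeR). The genes that fell were Sec61b and Sec61g, subunits of the channel through which proteins enter the ER, at log2 fold changes of -0.59 and -0.87 (adjusted p = 0.035 and 0.024). Canx, calnexin, was at 826 ± 11.9 and 758 ± 197 CPM (SD, n = 3 each; adjusted p = 0.76). The calls of Tapbpl, Sec61b and Sec61g were each lost without any 1 library other than KO replicate 3 (adjusted p of up to 0.14). At an unadjusted edgeR p under 0.05, 6 of the 12 were lower and 1 higher, against 10.3% and 13.1% of all tested genes. DESeq2 called 3 lower and 1 higher (5.19% and 7.29% of all genes), and limma-voom 6 and 1 (15.0% and 17.4%). The groups did not overlap in 6 on the lower side and 1 on the higher, against 14.7% and 16.8% of all tested genes.

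Most ER stress genes had log2 fold changes below zero, 10 of 11, and 6 did not overlap on the lower side against 1 on the higher. Over all tested genes these shares were 14.7% and 16.8%. At an unadjusted edgeR p under 0.05, 1 was higher and 5 lower, DESeq2 called 1 higher and 2 lower, and limma-voom 1 higher and 6 lower. The shares of all tested genes higher and lower were 13.1% and 10.3%, 7.29% and 5.19%, and 17.4% and 15.0% in the same order of tests. In edgeR 2 were called: Manf, a secreted stress-induced factor, fell from 60.3 ± 8.17 CPM in WT to 31.4 ± 3.78 CPM in KO (adjusted p = 0.011) and Herpud1, of ER-associated degradation, rose from 30.0 ± 5.79 CPM in WT to 47.1 ± 2.14 CPM in KO (SD, n = 3 in both groups; adjusted p = 0.048, edgeR), with a median log2 fold change of -0.34 over the list. Leaving out KO replicate 2 ended the call of Manf (adjusted p = 0.064), and Herpud1 lost its call without any 1 library other than KO replicate 3 (up to 0.18). The summed level of the list was 862 to 975.5 CPM in WT and 586 to 805 CPM in KO, lowest in KO replicate 3, the library in which Calr and Pdia3 were also lowest.

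No other listed proteasome gene was called higher by edgeR. Of 11 other subunits of the 20S core, the barrel that holds the catalytic sites, none rose and 2 fell, with all 11 log2 fold changes below zero and a median of -0.40. These 2 were Psmb2 (log2 fold change -0.68, adjusted p = 0.027) and Psma2 (-0.51, adjusted p = 0.047, edgeR), and both calls were lost without any 1 library other than KO replicate 3 (adjusted p of up to 0.13). Over all tested genes edgeR called 4.39% higher and 2.25% lower. At an unadjusted edgeR p under 0.05, 7 of the 11 were lower and 0 higher, against 10.3% and 13.1% of all tested genes. DESeq2 called 4 lower and limma-voom 5, against 5.19% and 15.0% of all tested genes, and neither called any higher. In 7 of the 11 the groups did not overlap on the lower side, against 14.7% of all tested genes. None of 9 proteasome activators and assembly factors was called by edgeR. At an unadjusted p under 0.05 it had 0 higher and 1 lower, DESeq2 called none, and limma-voom called 3 higher and 1 lower. With limma-voom 17.4% of all tested genes were called higher and 15.0% lower. Psme1 and Psme2, the interferon-inducible PA28 activator subunits, were at log2 fold changes of 0.27 and 0.29 (adjusted p = 0.27 each). None of 8 other peptidases of the route was called by edgeR, where 1 was lower at an unadjusted p under 0.05, and DESeq2 called 1 lower and limma-voom 1 in each direction. The median log2 fold change of these peptidases was -0.16.

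**Figure D5:**
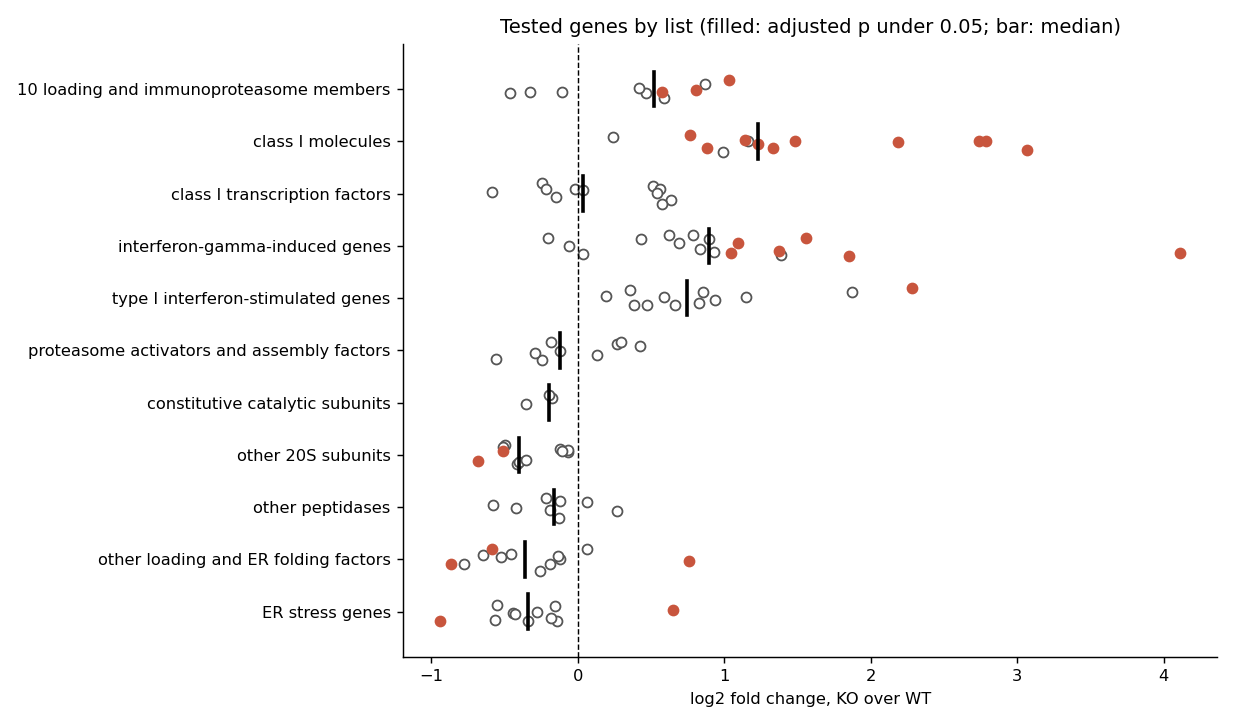
Log2 fold change of KO over WT of each tested gene, by list, with a bar at the median of the list; filled points have an adjusted p under 0.05. The medians are 0.52 for the 10 loading and immunoproteasome genes, 1.23 for class I molecules, 0.89 for interferon-gamma-induced genes, and -0.19 to -0.40 for constitutive catalytic subunits, other 20S subunits, ER folding factors and ER stress genes.

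Of 18 listed interferon-gamma-induced genes 17 were tested, and 6 rose and none fell by edgeR, with a median log2 fold change of 0.89. Over all tested genes 4.39% were called higher and 2.25% lower. Gbp2, a guanylate-binding protein, rose from 10.9 ± 3.50 to 32.3 ± 3.82 CPM (adjusted p = 0.010). Iigp1, an immunity-related GTPase, rose from 3.39 ± 1.55 CPM in WT to 12.3 ± 1.48 CPM in KO (mean ± SD of 3 libraries each; adjusted p = 0.013, edgeR). The others that rose were Gbp3, Gbp5, Cxcl9 and Ciita. Gbp2 kept its call with each library left out, while leaving out replicate 2 of either group ended that of Iigp1 (highest adjusted p 0.060). Without KO replicate 3, 5 of the 17 were called higher by edgeR, against 6.37% of all tested genes, at a median of 0.91. With it as the single KO library the median was 0.92. On all libraries 10 were higher at an unadjusted edgeR p under 0.05, 9 with DESeq2 and 12 with limma-voom, and 0 lower in each. The shares of all tested genes higher were 13.1%, 7.29% and 17.4% in that order. In 12 of the 17 the groups did not overlap on the higher side, against 16.8% of all tested genes. Ifng, which encodes interferon-gamma, had 2 counts in all 6 libraries together, so its own level was not measurable in the sorted cells.

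None of 11 listed transcription factors of class I genes passed the edgeR test, where 4 were higher and 1 lower at an unadjusted p under 0.05. DESeq2 called 0 higher and 1 lower, and limma-voom 4 higher and 2 lower. Over all tested genes the shares higher and lower were 13.1% and 10.3% at an unadjusted edgeR p. They were 7.29% and 5.19% with DESeq2, and 17.4% and 15.0% with limma-voom. Irf1, an interferon-inducible activator of class I genes, was at 42.3, 51.4 and 55.9 CPM in WT and at 61.2, 63.1 and 89.2 CPM in KO, with no overlap between the groups (log2 fold change 0.51, adjusted p = 0.13, edgeR). Irf8 and Rfx5, further activators of genes of antigen presentation, also did not overlap, at log2 fold changes of 0.56 and 0.54 (adjusted p = 0.13 each, edgeR).

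WT replicate 1 had low levels of interferon-responsive genes. The summed level of 12 type I interferon-stimulated genes, of which Ifi44 alone was called (higher, log2 fold change 2.28, adjusted p = 0.041, edgeR), was 85.0, 366 and 635 CPM in WT and 716, 707 and 647 CPM in KO. Ifi44 stayed called without WT replicate 1 and without KO replicate 3, and was not called when any other library was left out, at an adjusted p no higher than 0.15. WT replicate 1 was also the lowest WT library in 7 of the 10 genes, all but Tap2, Erap1 and Pdia3, against 38.8% of all tested genes. Without it the log2 fold change was 0.66 for Tap1, 0.68 for Psmb9, 0.58 for Tap2 and 1.01 for Tapbp. Of these 4, Tapbp was called without it.

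The genes whose pattern over the 6 libraries was most like that of a member were found by the root mean square difference of centred log2 CPM. For Nlrc5 they were Fbxw17, Rps15-ps2 and Nfxl1, at 0.071, 0.079 and 0.086 log2 units. For Tap1 they were Igfbp4, Gng7 and Fam110b, at 0.097, 0.10 and 0.11, and for Calr they were Atp5k, Ap2m1 and Clpp, at 0.046, 0.064 and 0.065. None of these 9 genes was called by edgeR, and with 6 libraries many genes can share a pattern.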

How the data were processed

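Macrophages sorted from mouse muscle (7000 to 50000 cells, per the labels' protocols) were profiled by RNA-seq. The authors deposited 1 table of raw read counts per gene symbol; Trim Galore, FastQC, HISAT2, featureCounts and DESeq, and the build GRCm38, are named without roles or versions in the submitters' processing notes. The sources used here do not give the annotation or the strand setting.

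Column names matched sample titles, and groups come from the genotype label. Of 55353 rows, 26 rows with dates in place of symbols were left out (0.0913% to 0.163% of counts). The filterByExpr function kept 14987 genes. Counts were scaled by TMM and tested with edgeR 4.0.16 (quasi-likelihood, two-sided, group as the sole term; R 4.3.3), with Benjamini-Hochberg adjustment and a threshold of 0.05. SE is the absolute log2 fold change divided by the square root of the F statistic, and intervals are at 95%. CPM are counts scaled to a TMM-adjusted library total of 1000000. Ratios of 2 genes were tested by exact permutation of libraries. The fitting script was tested on simulated data. DESeq2 1.42.0, limma 3.58.1 (voom with sample weights), other scalings and filters, and left-out libraries were tried as alternatives.

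Positions, exonic lengths and overlaps come from GENCODE M21, which matched 53435 symbols, 14744 of them tested. Promoter windows come from RefSeq.

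The 10 genes, all other lists and the rule for named genes were chosen with earlier results of these data known. That rule named the 10 genes, their constitutive counterparts, 11 set genes, Pfkfb3, up to 2 called genes per direction from each other list, and the 3 genes most like each of Nlrc5, Tap1 and Calr. The ratios of Tapbp to Calr and to Pdia3 and of Tap1 to Tap2 were added after the values were seen, and genes named outside the rule were too. The values of 1 listed transcription factor are not reported here.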

Additional observations from a re-analysis of the deposited data

How the results depend on the processing

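The number of genes called moved from 995 to 6308 with library sizes alone, 1957 with no count filter, 1870 with the DESeq2 test, 4850 with limma-voom, 267 with the replicate block, 87 without KO replicates 1 and 2, and 262 with those libraries added up, and was 196 to 1668 with each library left out. The 3 of 10 genes called higher became 0 with library sizes alone, the replicate block, KO replicates 1 and 2 left out or added up, became 6 with limma-voom, and were 0 to 6 with each library left out. The number called lower went from 0 to 3 with library sizes alone and 1 with limma-voom. Tap2 reversed to a log2 fold change of -0.046 with library sizes alone, a scaling that puts the median of all genes at -0.60, and Pfkfb3 to -0.65 with limma-voom. The log2 ratio of Psmb8 to Psmb5 moved to 0.75 with KO replicate 3 as the single KO library. In that library Psmb5 was at 15.8 CPM, below every WT library, and Psmb8 at 68.0 CPM, within the WT range. Beyond what these constructions change, the cause was not tested.

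The endings of the sample titles do not pair the libraries: deviations from the group means correlated at 0.02, -0.06 and -0.09 between libraries with the same ending. With the replicate block the ratio of Psmb8 to Psmb5 had the same difference, 0.65, with an exact p of 0.25, the smallest that 3 pairs allow. A lone library left in a group is assumed to vary like the other group. The lowest count of any of the 10 genes in a library was 279, for Psmb9 in WT replicate 1.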
